A study of Mus musculus with 9 samples.

Results

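The Gata3 locus was examined as a window of 250 kb on mouse chromosome 2, chr2:9650001-9900000 in the mm8 build, in ChIP-seq libraries of the transcription factors Stat5a and Stat5b. The window was fixed by its coordinates, and its members were every read whose 5′ end fell in it, counted in 500 bins of 500 bp, and every peak deposited by the authors that overlapped it. It held 30 of the 80628 deposited peaks, which joined into 18 of the 43771 merged regions of the genome. Chromatin came from mouse CD4+ T cells under Th2 differentiation, at 3 stages: 8 h, 13 h and 2 rounds. At each stage 1 library was made with an antibody against Stat5b, 1 with an antibody against Stat5a and 1 with control IgG, so the 9 groups held 1 library each. Strain, sex, age and culture conditions were referred by the labels to a publication not used here, and ChIP-seq measures no expression, so the cell type was not checked against its markers.

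Stat5a and Stat5b are closely related DNA-binding proteins encoded by neighbouring genes. They are phosphorylated by JAK kinases downstream of IL-2, IL-7 and related cytokines, enter the nucleus as dimers and bind sites of the form TTCNNNGAA. Gata3 is the zinc finger factor that defines the Th2 lineage, the helper cells that make IL-4, IL-5 and IL-13, and it is also needed at several earlier steps of T cell development. IL-4 acting through Stat6 is the classical inducer of Gata3 in Th2 cells, while IL-2 acting through Stat5 is a separate requirement for Th2 differentiation.

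In the RefSeq gene order of GRCm38.p6, Gata3 is flanked by the long noncoding RNA genes Gm13219 and Gm13218 on one side and 4930412O13Rik, 9230102O04Rik and Gm13262 on the other, beyond which lies Taf3, which encodes a subunit of the general transcription factor TFIID. That assembly differs from the build of the reads, so the start and exons of Gata3 could not be placed among the regions described here, and no region is called promoter, intronic or intergenic. For the same reason no sequence was read for the regions. The sequence shown is the stretch of 250 bases upstream of the Gata3 start from RefSeq (GRCm38.p6 chr2:9878601-9878850, minus strand), shown because it is the only stretch at the gene that could be searched for the Stat5 site. It has no part in capitals because it held no match.
Gata3 upstream: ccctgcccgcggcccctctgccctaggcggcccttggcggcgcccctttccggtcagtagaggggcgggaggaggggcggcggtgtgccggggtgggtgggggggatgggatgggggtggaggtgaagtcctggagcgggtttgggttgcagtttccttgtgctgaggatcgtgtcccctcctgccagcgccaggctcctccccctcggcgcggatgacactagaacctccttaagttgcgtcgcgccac

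The motif TTCNNNGAA, which reads the same on both strands, had 0 matches in the 300 bases from 250 before to 50 after the start. Of 32851 RefSeq promoters of that length, 8.30% held it. A missing match says only that these letters are not in this stretch.

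Libraries held between 3130228 (Stat5a at 8 h) and 9036070 (Stat5b at 13 h) mapped reads, and distinct starts, each start and strand counted a single time, numbered between 61.0% and 74.1% of them. Levels are in RPM (reads in every 1000000 mapped), and 3 reads, the floor used for a count of 0, were worth between 0.332 RPM (Stat5b at 13 h) and 0.958 RPM (Stat5a at 8 h). With 1 library per group, ratios compare libraries and not conditions. Their exact conditional 95% intervals are for counting error only. Reads carry no molecular identifier and may be copies of 1 molecule, and where they are, intervals on all reads are too narrow. A ratio was called when its interval lay wholly above 2 or wholly below 0.5. The regions come from peaks deposited for these same libraries, so a ratio to IgG in a library whose own list contains the region describes that region and is not separate evidence for it. A ratio between stages or antibodies is likewise favoured where the list of the higher library holds the region and that of the other does not.

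Deposited peaks in the Gata3 window were few at 8 h and 13 h and most frequent in the Stat5b list after 2 rounds. The Stat5b lists held 2, 3 and 15 peaks at the 3 stages in order, out of 3990, 13268 and 33692 peaks. The Stat5a lists held 3, 4 and 3 peaks, out of 5585, 14302 and 9791. The Stat5b count was highest after 2 rounds, when the whole Stat5b list was also longest, and the Stat5a count was 3 or 4 at each stage.

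Against 10157 tiles of 250 kb in which the IgG libraries together held at least 100 reads, the 18 merged regions exceeded the number in 95.6% of tiles, the median tile having 2. After joining overlapping peaks within a list, the 15 Stat5b peaks after 2 rounds exceeded 96.2% of tiles and the 3 Stat5a peaks of that stage 87.2%. At 8 h the 2 Stat5b peaks exceeded 92.7% and the 3 Stat5a peaks 93.4% of tiles. At 13 h the 3 Stat5b peaks exceeded 82.3% and the 4 Stat5a peaks 87.5%.

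The 18 regions are named R1 to R18 here in order along the chromosome. By list, 13 regions were in 1 list, 3 in 2 lists, 1 in 4 lists and 1 in 5 lists, and none was in all 6. By stage, 12 had peaks only after 2 rounds, 3 only at 13 h, 1 at 13 h and after 2 rounds, and 2 at all 3 stages. No region had a peak at 8 h alone. At 8 h peaks were absent from 16 of the 18 regions in both antibodies. The Stat5a peaks were in R8 and R12 at 8 h, in R1, R11, R12 and R18 at 13 h, and in R7, R8 and R9 after 2 rounds.

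**Figure D1:**
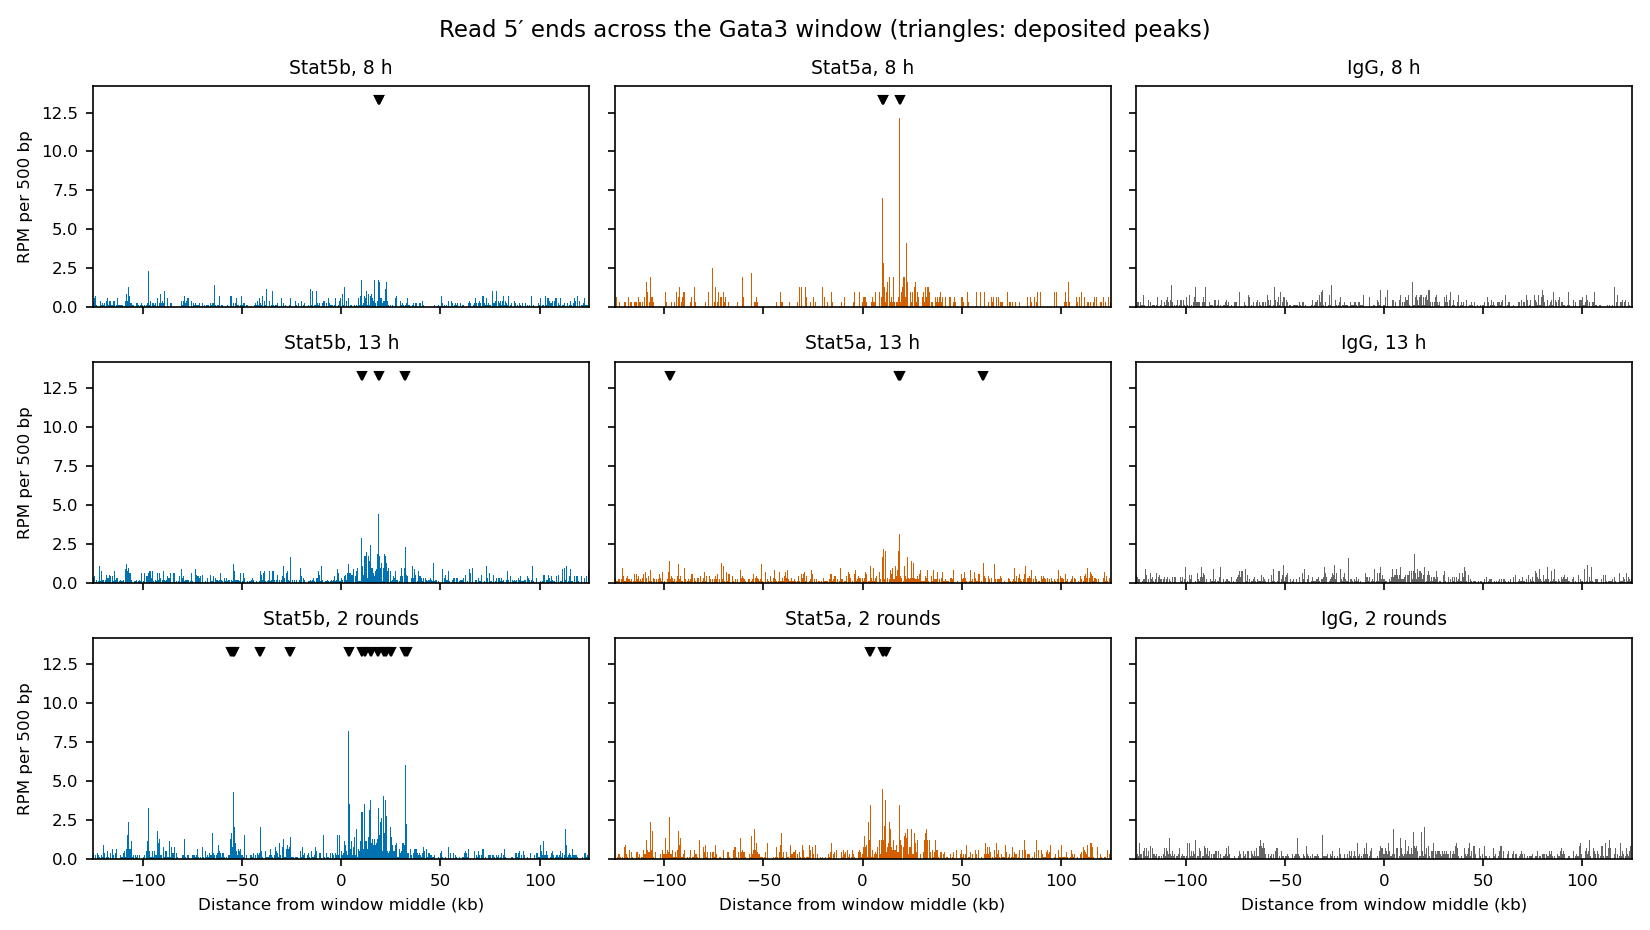
Read 5′ ends per 500 bp bin, in RPM, across the 250 kb window, against distance from its middle in kb, for Stat5b, Stat5a and IgG (columns, left to right) at 8 h, 13 h and 2 rounds (rows); triangles mark deposited peaks. The tallest bin at 8 h is in Stat5a with 38 reads, the tallest after 2 rounds is in Stat5b with 63 reads, and no IgG bin holds more than 14 reads.

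Regions R7 to R17, 11 of the 18, lay within 29494 bp of each other (chr2:9778545-9808038), each less than 10 kb from the next, the widest gap being 6813 bp between R15 and R16. R2 to R4 formed a smaller group of 3 with gaps of 705 bp and 99 bp, and R1, R5, R6 and R18 stood alone. In this stretch of 11 regions Stat5b libraries held 25.8, 55.1 and 94.7 RPM at 8 h, 13 h and 2 rounds. Stat5a libraries held 62.0, 35.6 and 61.1 RPM, and IgG 22.4, 27.4 and 31.6 RPM. Stat5b was therefore higher at each later stage, while Stat5a was lowest at 13 h and at like levels at the first and last stage.

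Over IgG of the same stage, the stretch of 11 regions had a ratio of 1.15 (95% interval 0.915 to 1.44) for Stat5b and 2.76 (2.21 to 3.46) for Stat5a at 8 h. At 13 h the ratios were 2.01 (1.71 to 2.38) for Stat5b and 1.30 (1.09 to 1.56) for Stat5a. After 2 rounds they were 2.99 (2.54 to 3.54) for Stat5b and 1.93 (1.62 to 2.31) for Stat5a. At 8 h only Stat5a stood above IgG, at 13 h Stat5b stood further above it, and after 2 rounds both did.

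Between stages, Stat5b in the stretch was 2.14 times (1.80 to 2.55) as high at 13 h as at 8 h and 3.67 times (3.11 to 4.35) as high after 2 rounds as at 8 h. The stretch was drawn around deposited peaks, and all its regions but R11 had a Stat5b peak after 2 rounds. A higher Stat5b level at that stage was therefore favoured by its choice. Stat5a was at 0.575 times (0.478 to 0.692) its 8 h level at 13 h and 0.986 times (0.829 to 1.18) that level after 2 rounds. IgG itself was 1.41 times (1.12 to 1.77) as high after 2 rounds as at 8 h, and the part of that rise in the Stat5 changes was not tested.

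Reads outside the regions but inside the stretch, 22980 bp, also stood above IgG in some libraries. At 8 h their ratio to IgG was 0.927 (0.695 to 1.24) for Stat5b and 1.87 (1.39 to 2.51) for Stat5a. At 13 h it was 1.43 (1.17 to 1.76) for Stat5b and 0.917 (0.729 to 1.15) for Stat5a, and after 2 rounds 2.08 (1.68 to 2.57) and 1.47 (1.17 to 1.86) in the same order. In the remaining 217960 bp of the window all 6 ratios lay between 0.927 and 1.09, and all 6 intervals included 1. Summed over each part and scaled by all mapped reads, an excess over IgG was thus seen in the regions and the stretch of 11. On that scale it was not seen over the rest of the 250 kb. The median tile of the genome, however, had a ratio to IgG of 0.799 for Stat5b after 2 rounds. For the other Stat5 libraries it was between 0.934 and 0.984. A ratio near 1 in the rest was therefore above the median tile for Stat5b after 2 rounds. That rest was cut to hold no deposited peak of these libraries, so a low sum there was favoured by the division. The bin chr2:9667501-9668000 in it was called over IgG in Stat5b after 2 rounds (18 and 1 reads), though not in distinct starts.

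**Figure D2:**
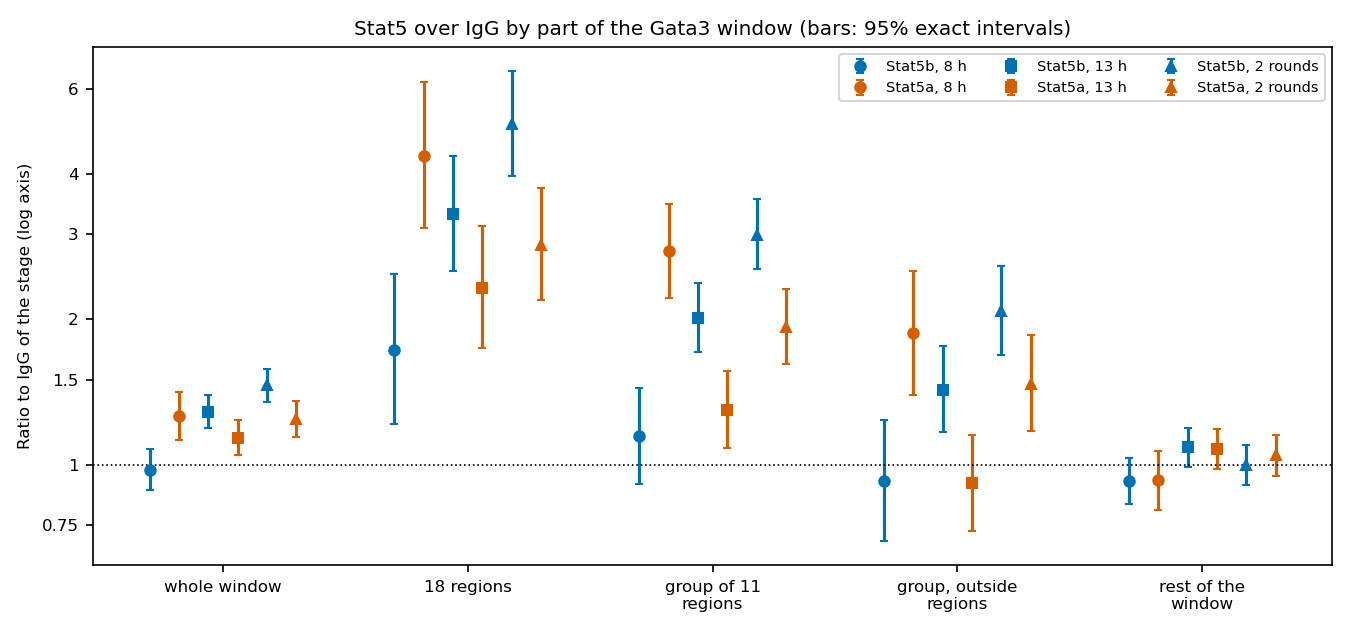
Ratio of Stat5b (blue) and Stat5a (orange) to IgG of the same stage, on a log axis, in 5 parts of the Gata3 window, with exact 95% intervals for counting error as bars. In the rest of the window all intervals include 1, while in the group of 11 regions only the Stat5b interval at 8 h includes it.

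Set beside 1299 groups of at least 5 regions made in the same way over the genome, the Gata3 stretch was not at either end of the range in most libraries. Its ratio to IgG exceeded 23.9% of groups for Stat5b and 75.3% for Stat5a at 8 h. At 13 h it exceeded 40.9% of groups for Stat5b and 12.1% for Stat5a, and after 2 rounds 42.2% for Stat5b and 55.0% for Stat5a. Outside its regions the stretch had its highest standing in Stat5b after 2 rounds, where the ratio of 2.08 exceeded 86.6% of groups, the median being 1.55.

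For the window as a whole, Stat5b libraries held 124, 176 and 239 RPM at 8 h, 13 h and 2 rounds. Stat5a libraries held 160, 155 and 204 RPM, and IgG 127, 136 and 164 RPM. The window was richer in reads than most tiles in every library, IgG included. The IgG levels exceeded those of 97.5%, 97.9% and 98.8% of tiles at the 3 stages, and the Stat5 levels those of between 93.9% and 97.7%. Over IgG the window's ratios were 0.978 (0.886 to 1.08) for Stat5b and 1.26 (1.13 to 1.41) for Stat5a at 8 h, 1.29 (1.19 to 1.40) for Stat5b and 1.14 (1.05 to 1.24) for Stat5a at 13 h, and 1.46 (1.35 to 1.58) for Stat5b and 1.24 (1.14 to 1.35) for Stat5a after 2 rounds. The share of the window's reads that lay in the stretch of 11 regions was 20.8%, 31.4% and 39.6% in Stat5b, 38.6%, 23.0% and 30.0% in Stat5a, and between 17.7% and 20.1% in IgG.

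In each library fewer than 50% of the Gata3 window's regions were called over IgG, while 10 of the 18 were called in at least 1 library, and 4 of the 18 (R7, R8, R12 and R16) in distinct starts. For Stat5b, 0 of 18 regions were called at 8 h (3.21% of the genome's tested regions were), 2 at 13 h (18.7%) and 7 after 2 rounds (49.3%). For Stat5a, 3 were called at 8 h (13.1%), R2, R8 and R12, 3 at 13 h (14.3%) and 3 after 2 rounds (15.0%). Between 16 and 18 of the regions had reads to test in each pair of libraries. As shares of these, the Stat5b counts were 0%, 11.1% and 41.2%, below the background at each stage, and the Stat5a counts 18.8%, 16.7% and 17.6%, slightly above it. With so few regions, these differences from the background were small in number of regions and were not tested. R2, which had no peak at 8 h, held 6 Stat5a and 0 IgG reads at that stage, and with 3 distinct Stat5a starts it was not called. Counting distinct starts, the Stat5b counts were 0, 2 and 2 (backgrounds 1.45%, 9.67% and 33.9%) and the Stat5a counts 2, 0 and 1 (5.98%, 3.84% and 7.04%). As shares these were 0%, 11.1% and 11.8% for Stat5b and 12.5%, 0% and 5.88% for Stat5a. The side of the background thus changed for Stat5b at 13 h and for Stat5a at 13 h and after 2 rounds. The ratio to IgG over regions with reads in both libraries had a median of 5.20 in the window and 6.05 in the genome for Stat5b after 2 rounds.

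R12 (chr2:9793398-9794124, 727 bp) had the widest presence, with peaks in 5 of the 6 lists and none in Stat5a after 2 rounds. At 8 h it held 20 Stat5b, 39 Stat5a and 5 IgG reads, which are 2.91, 12.5 and 0.801 RPM. At 13 h it held 63, 29 and 5 reads (6.97, 3.49 and 0.664 RPM), and after 2 rounds 37, 24 and 13 reads (4.83, 3.61 and 2.25 RPM), in the same order of antibodies. Stat5a was highest at 8 h and Stat5b at 13 h, and IgG was highest after 2 rounds.

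R12 in Stat5a at 8 h was 15.6 times (6.12 to 50.6) the IgG level and ranked 306th by reads among 5493 joined peaks of that list, whose median peak held 12 reads. At 13 h it was called over IgG in Stat5b (10.5 times, 4.27 to 33.4) and in Stat5a (5.25 times, 2.01 to 17.4). The Stat5a call at 13 h was lost in distinct starts (3.16), with 25 bp reads alone (4.23), with 5′ ends moved 75 bp (3.75) and with pooled IgG (2.97). After 2 rounds neither Stat5b (2.15 times, 1.12 to 4.41) nor Stat5a (1.61 times, 0.787 to 3.44) was called, against the higher IgG count of that stage. With IgG pooled over the stages, Stat5b was called (4.11). Over the genome's regions ranked by mean Stat5 RPM above IgG, R12 stood 483rd at 8 h, 1532nd at 13 h and 17857th after 2 rounds.

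The Stat5b peaks of R12 at 8 h were a pair of short intervals of 75 bp and 66 bp with 5 and 8 reads, in a list whose median peak held 8 reads. Stat5b in R12 at that stage was 3.64 times (1.32 to 12.4) the IgG level and was not called.

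Between stages, R12 was called lower in Stat5a at 13 h than at 8 h, at 0.280 times (0.167 to 0.465), and after 2 rounds than at 8 h, at 0.290 times (0.167 to 0.494). The median ratio over the genome's regions with reads in both libraries was 0.869 for Stat5a at 13 h over 8 h and 1.10 for 2 rounds over 8 h. The first call was lost in distinct starts (0.273), with 25 bp reads alone (0.358) and with scaling by that median (0.322), and the second with 25 bp reads alone (0.372) and with scaling by reads outside regions (0.295). Stat5b in R12 was 2.39 times (1.43 to 4.18) as high at 13 h as at 8 h and 0.693 times (0.449 to 1.06) as high after 2 rounds as at 13 h, neither called. Scaled by the Stat5b median of 2.58 for 2 rounds over 13 h, that last ratio was 0.269 and was called lower.

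R8 (chr2:9784978-9785790, 813 bp) had peaks in 4 lists, Stat5a at 8 h, Stat5b at 13 h and both antibodies after 2 rounds, and none in Stat5b at 8 h or Stat5a at 13 h. At 8 h it held 13 Stat5b, 30 Stat5a and 6 IgG reads, which are 1.89, 9.58 and 0.961 RPM. At 13 h it held 34, 21 and 8 reads (3.76, 2.53 and 1.06 RPM), and after 2 rounds 38, 37 and 9 reads (4.96, 5.57 and 1.56 RPM). As in R12, the Stat5a level was highest at 8 h and lowest at 13 h.

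R8 was called over IgG only in Stat5a at 8 h, at 9.97 times (4.08 to 29.3), and this call was kept under all 5 alternative settings tried on it. The other 5 ratios lay between 1.97 and 3.58 and were not called. After 2 rounds both antibodies were called with pooled IgG (4.22 for Stat5b, 4.73 for Stat5a) and with 5′ ends moved 75 bp (6.05 and 6.44). At 13 h both were called with 25 bp reads alone, at least 4.75-fold for Stat5b and 4.16-fold for Stat5a with IgG set to 3 counts. All 8 IgG reads of R8 at 13 h were 24 bp long, so that setting left its control with none. Stat5a in R8 was called lower at 13 h than at 8 h (0.264 times, 0.143 to 0.476), and not in distinct starts (0.363), with 25 bp reads alone (0.344) or scaled by the median of regions (0.303). At 8 h the 13 Stat5b reads of R8 came from 12 distinct starts and the 30 Stat5a reads from 13. Stat5b in R8 was 1.99 times (1.02 to 4.10) as high at 13 h as at 8 h, near the median of 1.90 over the genome's regions.

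R7 (chr2:9778545-9779272, 728 bp) was the most read-rich region of the window after 2 rounds and had peaks in both lists of that stage and in no other. At 8 h it held 4 Stat5b, 0 Stat5a and 3 IgG reads, and at 13 h 14, 12 and 10 reads. After 2 rounds it held 90, 24 and 3 reads, which are 11.8, 3.61 and 0.518 RPM. At the first 2 stages Stat5 and IgG reads were close to each other, and only after 2 rounds were both Stat5 antibodies above IgG.

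Over IgG, R7 after 2 rounds was at 22.7 times (7.52 to 112) in Stat5b and 6.97 times (2.12 to 36.1) in Stat5a. The Stat5b call was kept under all 5 alternative settings tried on it, and the Stat5a call was lost with 25 bp reads alone (2.83). At 13 h the ratios were 1.17 (0.482 to 2.93) and 1.09 (0.430 to 2.81). R7 ranked 2839th by reads among 31744 joined Stat5b peaks of 2 rounds, whose median peak held 30 reads.

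Stat5b in R7 was 7.59 times (4.30 to 14.4) as high after 2 rounds as at 13 h and 20.2 times (7.61 to 75.7) as high as at 8 h. Both were called higher. The medians over the genome's regions for these pairs were 2.58 and 4.82, and relative to them the ratios were 2.94 and 4.19, not called. Stat5a in R7 was called higher after 2 rounds than at 8 h, at least 3.77-fold with the 0 reads at 8 h set to 3 counts, and 2.50 times (1.20 to 5.49) as high as at 13 h, not called. The floor of 3 counts for its 0 reads at 8 h is 0.958 RPM, and the exact 95% Poisson upper limit is 1.18 RPM.

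R16 (chr2:9806866-9807709, 844 bp) had peaks in Stat5b at 13 h and after 2 rounds and in no Stat5a list. At 8 h it held 1 Stat5b, 2 Stat5a and 7 IgG reads, at 13 h 25, 5 and 2 reads, and after 2 rounds 57, 29 and 4 reads. The last of these are 7.44, 4.36 and 0.691 RPM. Stat5b was above IgG at 13 h and both antibodies were above it after 2 rounds, so the missing Stat5a peak of that stage stood beside 29 reads in 844 bp.

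R16 was called over IgG in Stat5b at 13 h (10.4 times, 2.60 to 90.7) and after 2 rounds (10.8 times, 3.98 to 40.9), and in Stat5a after 2 rounds (6.31 times, 2.22 to 24.7). With 25 bp reads alone, which leaves out 77.3% of the IgG reads of 2 rounds and 49.7% of those of 13 h, none of the 3 was called. The Stat5a call was also lost in distinct starts (3.02) and with 5′ ends moved 75 bp (3.66). Stat5b was called higher at 13 h than at 8 h (19.0 times, 3.11 to 780) and after 2 rounds than at 8 h (51.1 times, 8.81 to 2054), both resting on 1 read at 8 h and neither called when scaled by the median of regions. Stat5a was called higher after 2 rounds than at 13 h (7.25 times, lower limit 2.78), and not in distinct starts (3.09).

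R9 (chr2:9786524-9787067, 544 bp) had peaks in both lists of 2 rounds. It held 5 Stat5b, 1 Stat5a and 3 IgG reads at 8 h, 20, 17 and 4 at 13 h, and 27, 25 and 3 after 2 rounds. The antibodies followed each other closely, and after 2 rounds the ratios to IgG were 6.80 (2.09 to 35.0) for Stat5b and 7.26 (2.21 to 37.6) for Stat5a, both called. In distinct starts neither was called (7.04 and 6.55). At 13 h, where no list held R9, the ratios were 4.16 (1.40 to 16.7) and 3.85 (1.26 to 15.7), not called.

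R14 (chr2:9796973-9797849, 877 bp) had a peak in Stat5b after 2 rounds alone, though Stat5a reads were frequent there at 8 h. It held 18 Stat5b, 18 Stat5a and 13 IgG reads at 8 h, 28, 16 and 9 at 13 h, and 48, 23 and 6 after 2 rounds. In RPM, Stat5b was at 2.62, 3.10 and 6.27, Stat5a at 5.75, 1.93 and 3.46, and IgG at 2.08, 1.20 and 1.04. R14 was called over IgG in Stat5b after 2 rounds (6.05 times, 2.58 to 17.3), and not in distinct starts (4.97) or 25 bp reads alone (2.75). At 8 h Stat5a was at 2.76 times (1.28 to 6.13) the IgG level, called with pooled IgG alone (4.02). In distinct starts, 8 in Stat5a and 8 in IgG, that ratio was 2.08 (0.682 to 6.37), an interval that included 1.

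**Figure D3:**
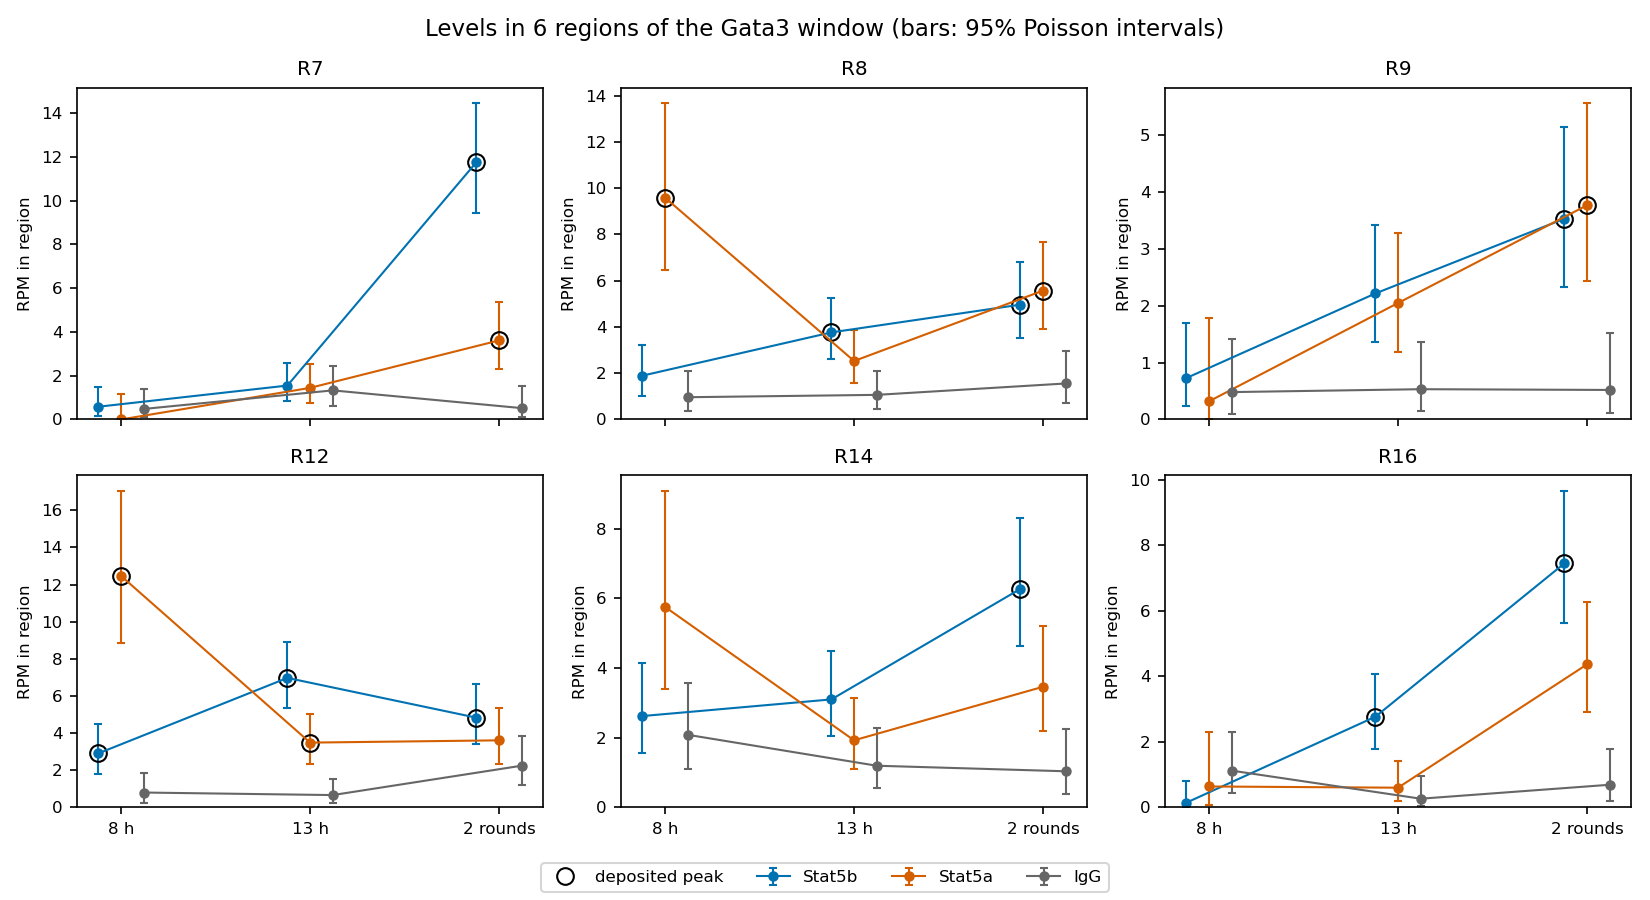
Levels of Stat5b (blue), Stat5a (orange) and IgG (grey), in RPM, at 8 h, 13 h and 2 rounds in the 6 regions described in full; bars are exact 95% Poisson intervals for counting error and rings mark a deposited peak. Across the stages, Stat5a is highest at 8 h in R8, R12 and R14, and Stat5b is highest after 2 rounds in each region except R12.

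The other 12 regions were each in 1 list and not among the 3 with the most reads above IgG at any stage. R2 (chr2:9719197-9719650), R3 (chr2:9720356-9720796), R4 (chr2:9720896-9721333), R5 (chr2:9733856-9734286), R6 (chr2:9749130-9749471), R10 (chr2:9789611-9790172), R13 (chr2:9796190-9796611), R15 (chr2:9799587-9800052) and R17 (chr2:9807727-9808038) had a peak in Stat5b after 2 rounds alone. In that library they held between 10 reads (R17) and 31 reads (R13), and the IgG library of that stage held between 1 and 10. R2, with 18 Stat5b and 1 IgG reads, and R13, with 31 and 4, were called over IgG (13.6 and 5.86 times), and neither was in distinct starts (8.28 and 7.04). The other 7, with a deposited Stat5b peak, were not.

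R1 (chr2:9677616-9677822), R11 (chr2:9793005-9793223) and R18 (chr2:9835581-9835813) had a peak in Stat5a at 13 h alone. There they held 11, 15 and 7 Stat5a reads, against 0, 0 and 2 IgG reads. R1 and R11 were called over IgG, at least 3.32-fold and 4.53-fold with IgG set to 3 counts, and neither was in distinct starts (6 and 8 Stat5a starts). R11, 174 bp before R12, held 10 Stat5b reads at 13 h and then 4 Stat5b and 0 Stat5a reads after 2 rounds, the Stat5a change being called lower. R18 held no read in the 6 libraries of 8 h and 2 rounds and none in Stat5b at 13 h. R1 held 14 Stat5b, 10 Stat5a and 0 IgG reads after 2 rounds, where no list contained it, and Stat5b was called over IgG there, though not with its 8 distinct starts.

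Changes of Stat5b or Stat5a between stages were called in 12 of the 18 regions in at least 1 pair of stages. Stat5b at 13 h over 8 h gave 2 regions higher (background 5.58%), R4 and R16, and 0 lower (0.321%). Stat5b after 2 rounds over 13 h gave 4 higher (26.3%), R1, R2, R3 and R7, and over 8 h it gave 7 higher (45.5%), R3, R4, R5, R7, R13, R15 and R16, with 0 lower in either (0.668% and 0.225%). As shares of the 17 regions with reads these are 11.8%, 23.5% and 41.2%, the first above its background and the others below it. R2, R3, R4, R5, R13 and R15 became regions through a peak in Stat5b after 2 rounds alone, and R7 through peaks of that stage alone. Their higher level in that library was thus favoured by how they were chosen. The median Stat5b ratio for 2 rounds over 8 h was 3.44 in the window and 4.82 in the genome's regions.

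Stat5a at 13 h over 8 h gave 0 regions higher (background 0.297%) and 2 lower (2.23%), R8 and R12. After 2 rounds over 13 h it gave 2 higher (7.79%), R5 and R16, and 1 lower (4.03%), R11. After 2 rounds over 8 h it gave 1 higher (4.12%), R7, and 1 lower (2.10%), R12. In IgG, 1 region was called higher after 2 rounds than at 8 h (0.621%), R10, with 10 and 0 reads, and no other IgG change was called (0.286% and 0.718% of the genome's regions were called higher in the other pairs, and 0.521%, 0.102% and 0.165% were called lower at 13 h over 8 h, 2 rounds over 13 h and 2 rounds over 8 h).

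Counting distinct starts, Stat5b gave 1 region higher at 13 h over 8 h (background 1.20%), R16, 3 after 2 rounds over 13 h (15.5%), R2, R3 and R7, and 4 after 2 rounds over 8 h (32.5%), R3, R4, R7 and R16. Stat5a gave 0 lower at 13 h over 8 h (0.576%), 0 higher (2.60%) and 0 lower (0.0603%) after 2 rounds over 13 h, and 1 higher (1.10%), R7, and 1 lower (0.452%), R12 at 0.220 times, after 2 rounds over 8 h. IgG gave 0 higher after 2 rounds over 8 h (0.0438%). For 2 rounds over 8 h, the Stat5a calls of R7 and R12 thus had the same direction in both ways of counting, which use the same reads. The Stat5a lists held R7 after 2 rounds and not at 8 h, and R12 at 8 h and not after 2 rounds. Both directions were therefore favoured by how the regions were chosen.

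Between antibodies, R8 and R12 were the 2 regions called lower in Stat5b than in Stat5a at 8 h (background 4.26%), at 0.198 times (0.095 to 0.390) and 0.234 times (0.129 to 0.411), and 0 were called higher (0.0538%). Neither was called in distinct starts (0.372 and 0.298; background 0.984%) or relative to the median over the genome's regions of 0.547 (0.361 and 0.427). At 13 h no region was called in either direction (2.11% higher and 5.41% lower in the genome). R16 had the widest gap of the 6 regions, with 25 Stat5b and 5 Stat5a reads, 4.60 times (1.73 to 15.4), which was called with 5′ ends moved 75 bp (6.44). After 2 rounds 3 regions were called higher in Stat5b (18.2%), R4, R6 and R7, and 0 lower (0.516%). In distinct starts none of the 3 was called (7.46%). R7 was at 3.25 times (2.06 to 5.34), and at 1.34 times relative to the median ratio of 2.43 over the genome's regions, not called. These are ratios of libraries made with different antibodies and are not ratios of the proteins.

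Among the 500 bins of the window, 3 held no read in any library, and bins with at least 1 read made up between 40.6% (Stat5a at 8 h) and 76.8% (Stat5b at 13 h). Bins with at least 10 reads in a Stat5 and its IgG library were tested in the same way. For Stat5b, 0 of 18 bins were called over IgG at 8 h (background 4.73%), 4 of 65 at 13 h (7.03%) and 13 of 75 after 2 rounds (16.2%). For Stat5a the counts were 2 of 14 (13.2%), 1 of 45 (7.46%) and 4 of 50 (9.65%). The shares ran from 0% to 17.3%. Stat5b after 2 rounds (17.3%) and Stat5a at 8 h (14.3%) were close to their background, slightly above it, and in distinct starts Stat5b after 2 rounds was below it (9.09%). Counting distinct starts, 0 of 5, 2 of 16 and 3 of 33 bins were called for Stat5b (4.92%, 11.9% and 22.7%) and 1 of 2, 0 of 7 and 2 of 10 for Stat5a (29.7%, 7.87% and 14.9%), so few bins were tested in that way. With all reads and the interval required to lie above 1 in place of 2, more bins were called in each of the 6 libraries.

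Of the bins called with no deposited peak in them, all 3 were in Stat5b after 2 rounds. The bin chr2:9789001-9789500, between R9 and R10, held 24 Stat5b and 2 IgG reads (9.07 times, 2.25 to 79.2), and chr2:9794501-9795000, after R12, held 18 and 1 (13.6 times, 2.15 to 567). The bin chr2:9667501-9668000, before R1, also held 18 and 1. None of the 3 was called in distinct starts.

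Outside the regions, the bin with the most RPM above IgG was at 2.56 RPM in Stat5a at 8 h (chr2:9699001-9699500), whose 8 reads had 1 start, and at 1.75 RPM in Stat5b at 8 h (chr2:9791501-9792000, 12 reads from 7 starts). At 13 h it was at 1.33 RPM in Stat5b (chr2:9821001-9821500, 12 reads from 4 starts) and 1.08 RPM in Stat5a (chr2:9704501-9705000, 9 reads from 4 starts). After 2 rounds it was at 3.13 RPM in Stat5b, the bin between R9 and R10 named above, and at 2.41 RPM in Stat5a, in chr2:9668001-9668500 and chr2:9777501-9778000, each with 16 reads from 6 and 5 starts. The tallest bins of the window, in R7 for Stat5b after 2 rounds and in R12 for Stat5a at 8 h, held 63 and 38 reads, against 24 and 8 in these bins.

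A binding site read from the ends of fragments has forward starts on one side and reverse starts on the other. Of the 6 cases with at least 10 starts per strand, all in Stat5b, reverse starts lay downstream of forward starts by a median of 240.5 bp in R12 at 13 h and 197 bp in R12 after 2 rounds. After 2 rounds the distance was 184.5 bp in R16, 162.5 bp in R7 and 82 bp in R14. R8 after 2 rounds was the exception, with reverse starts 19 bp upstream of forward starts. In R12 no single start held more than 7 reads in a Stat5 library, but those 7 were 29.2% of the 24 Stat5a reads after 2 rounds. In R7 after 2 rounds no start held more than 3 of the 90 Stat5b reads.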

How the data were processed

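ChIP-seq libraries of Stat5b, Stat5a and IgG at 3 stages, 1 per group, were taken as deposited by the authors. Each read list gives, per the file headers and values, the start and end of a mapped read in bp of mm8, 1 line per read and not normalized, and each of the 6 peak lists gives the start and end of a peak, with no height or p-value; these deposited coordinates are the only unit used, and no score or count was taken over from the authors. The sources used here give neither the aligner nor the peak caller, its threshold or the role of IgG in it. Per the labels the series has 22 lanes.

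Reads were 25 bp long, with 24 bp reads in 4 libraries (38.0% of Stat5a and 49.7% of IgG at 13 h, 54.5% of Stat5a and 77.3% of IgG after 2 rounds). Their 5′ ends were moved by 1 bp, an offset that is clear in Stat5a at 13 h alone, where 14.3% of 25 bp starts recurred 1 bp on. A read was counted by its 5′ end, all reads first and each start and strand once as an alternative. Library depth was between 3130228 and 9036070 reads, and levels were scaled to RPM.

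Overlapping peaks (at least 1 bp) of the 6 lists were joined into merged regions over the genome, and regions less than 10 kb apart into groups. Each ratio has an exact conditional interval (Clopper-Pearson), shares Wilson intervals and levels exact Poisson intervals, all at 95% and for counting error only. Calls need the interval wholly above 2 or below 0.5, and bins at least 10 reads. Counts of 0 were set at 3 for bounds. With 1 library per group no p-value was computed. Every merged region of the genome was tested and only those of the window are printed. Regions in at least 2 lists, or among the 3 with the most reads above IgG at a stage, are given in full, as are, outside regions, the bins with the most RPM above IgG. A percentage of tiles or groups exceeded is the share with a lower value. The calling rule was tested on simulated counts. The members and lists were chosen with earlier results of these data known.

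Alternatives were each start and strand once, 25 bp reads alone, 5′ ends moved 75 bp downstream, scaling to the reads outside all regions, scaling to the median ratio of regions read in both libraries, pooled IgG, bins of 1000 bp or started 250 bp later, a bin interval above 1, the upper 50% of each list by reads and 50% reciprocal overlap. Gene names and the upstream sequence are from RefSeq (GRCm38.p6), whose coordinates were not compared with mm8. Software was Python 3.11.15 with scipy 1.17.1, numpy 2.4.6, matplotlib 3.10.9 and pandas 2.3.3.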

Additional observations from a re-analysis of the deposited data

Results flagged for a closer look

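In 2 regions of the Gata3 window Stat5b and Stat5a moved in opposite directions between the same stages with both intervals clear of 1 in all reads, each with 1 library, and that contrast of antibodies was not tested. In R8 (chr2:9784978-9785790) the ratio of 13 h to 8 h was 1.99 for Stat5b and 0.264 for Stat5a, and that of 2 rounds to 8 h was 2.62 for Stat5b and 0.581 for Stat5a. In R12 (chr2:9793398-9794124) the ratio of 13 h to 8 h was 2.39 for Stat5b and 0.280 for Stat5a. Of these, the Stat5a ratios of 13 h to 8 h were called, and neither in distinct starts. R12 after 2 rounds over 8 h was at 1.66 for Stat5b, with an interval that included 1, and 0.290 for Stat5a, called lower with all reads and in distinct starts (0.220). The Stat5a lists held R8 at 8 h and not at 13 h, and the Stat5b lists at 13 h and 2 rounds and not at 8 h. The opposite directions of R8 at 13 h, and its higher Stat5b after 2 rounds, were therefore favoured by its choice. R12 was in the Stat5a list at 8 h and not after 2 rounds, which favoured its lower ratio there. Other regions had ratios on opposite sides of 1 with at least 1 interval that included 1, such as R14, at 1.18 for Stat5b and 0.335 for Stat5a for 13 h over 8 h and 2.39 and 0.602 for 2 rounds over 8 h. The medians over the genome's regions for 13 h over 8 h were also on opposite sides of 1, at 1.90 for Stat5b and 0.869 for Stat5a. For 2 rounds over 8 h the medians were 4.82 for Stat5b and 1.10 for Stat5a, and R8, R12 and R14 were below both. In distinct starts the contrast in R8 was smaller. Stat5a in R8 was at 6.34 RPM at 8 h, 2.30 RPM at 13 h and 5.43 RPM after 2 rounds, from 13, 12 and 22 starts. Stat5b in R8 was at 2.36, 3.17 and 4.87 RPM, from 12, 18 and 24 starts. That both intervals were clear of 1 is stated for all reads only. Stat5a at 8 h is the library with the fewest reads, 3130228.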

How the results depend on the processing

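Each group had 1 library, so a result rests on each library it names, and leaving out a replicate was not possible. No paired analysis was possible because the groups hold 1 library each and the labels give no replicate numbers. Over the window, region and bin results, 199 of 271 values under an alternative moved by less than their counting error or, for counts, by less than 1.5 times. The other 72 moved by more, and none was counted as reversed. Small moves across 1 were not counted as reversed. The window ratio of Stat5b at 8 h over IgG, for example, was 0.978 with all reads and 1.02 in distinct starts. Of 535 values for the 6 regions given in full, 36 calls were lost and 14 gained. Causes were not tested, apart from fewer reads where 25 bp reads or single starts were used.

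With each start and strand counted once, regions called over IgG numbered 2 for Stat5b after 2 rounds (7 with all reads), 0 for Stat5a at 13 h (3) and 1 for Stat5a after 2 rounds (3). Regions called higher in Stat5b numbered 1 for 13 h over 8 h (2) and 4 for 2 rounds over 8 h (7). In Stat5a 0 were lower for 13 h over 8 h (2), and 0 higher (2) and 0 lower (1) for 2 rounds over 13 h. In IgG 0 were higher for 2 rounds over 8 h (1). Between Stat5b and Stat5a 0 were lower at 8 h (2) and 0 higher after 2 rounds (3). Bins called were 2 for Stat5b at 13 h (4) and 3 after 2 rounds (13), and 1, 0 and 2 for Stat5a at 8 h, 13 h and 2 rounds (2, 1 and 4).

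With 25 bp reads alone, regions called over IgG after 2 rounds numbered 1 for Stat5b (7) and 1 for Stat5a (3). In Stat5a 0 were lower for 13 h over 8 h (2), 0 lower for 2 rounds over 13 h (1), and 4 higher (1) and 0 lower (1) for 2 rounds over 8 h. Stat5b over Stat5a gave 1 lower at 13 h (0) and 1 higher after 2 rounds (3). Bins called were 2 for Stat5b at 13 h (4) and 2 after 2 rounds (13), and 3 and 1 for Stat5a at 13 h and 2 rounds (1 and 4). The window ratio was 1.46 for Stat5a after 2 rounds over 13 h (1.31 with all reads), 1.42 over 8 h (1.27) and 1.32 for IgG after 2 rounds over 13 h (1.20).

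With 5′ ends moved 75 bp, 1 region was called over IgG in Stat5a at 13 h (3), 2 were lower in Stat5a after 2 rounds than at 13 h (1), and 1 was higher and 1 lower in Stat5b than in Stat5a at 13 h (0 and 0).

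Scaled by the median ratio over regions, Stat5b for 13 h over 8 h had 0 regions higher (2) and 1 lower (0), for 2 rounds over 13 h 1 higher (4) and 1 lower (0), and for 2 rounds over 8 h 0 higher (7). Stat5a had 0 lower for 13 h over 8 h (2) and 1 higher for 2 rounds over 13 h (2), and IgG had 1 higher for 13 h over 8 h (0). Stat5b over Stat5a had 0 lower at 8 h (2), 1 lower at 13 h (0) and 0 higher after 2 rounds (3). Scaled by reads outside regions, the window ratio of Stat5b after 2 rounds was 1.74 over IgG (1.46), 1.56 over 13 h (1.36) and 2.25 over 8 h (1.93), and 0 regions were lower in Stat5a after 2 rounds than at 8 h (1).

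With IgG pooled over stages, the window ratio was 0.878 for Stat5b at 8 h (0.978), 1.69 for Stat5b after 2 rounds (1.46) and 1.44 for Stat5a after 2 rounds (1.24). Regions called numbered 1 for Stat5b at 8 h (0), 14 for Stat5b after 2 rounds (7) and 7 for Stat5a after 2 rounds (3). Bins called numbered 1 for Stat5b at 8 h (0), 11 at 13 h (4), and 12 for Stat5a after 2 rounds (4).

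Bins of 1000 bp gave 8 called for Stat5b after 2 rounds (13), and bins started 250 bp later gave 1 for Stat5b at 8 h (0). With the interval above 1, bins called were 3, 18 and 26 for Stat5b and 4, 9 and 14 for Stat5a at 8 h, 13 h and 2 rounds. In the upper 50% of each list the window held 0, 1 and 6 Stat5b peaks, and 2 Stat5a peaks at 13 h. With 50% reciprocal overlap 2 regions were shared by at least 2 lists (5).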
